A study of Mus musculus with 6 samples.

Results

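The genes described are 9 known regulators of epidermal differentiation around *Kdf1*, namely *Kdf1*, *Grhl1*, *Grhl2*, *Grhl3*, *Sfn*, *Ovol1*, *Chuk*, *Trp63* and *Klf4*. They were chosen by name for their known role in skin, but with earlier results of these data known. All 9 were found among the 18152 genes measured. RNA was sequenced from the inner enamel epithelium (IEE), the epithelial layer of the tooth germ that faces the dental papilla and gives rise to the ameloblasts, which make enamel. The IEE was cut by laser capture microdissection from the mandibular first molar (MM1) of mouse embryos on a C57BL/6J background at E18.5. There were 3 libraries from *Kdf1* fl/fl embryos without Cre, named control here and WT in the labels' treatment field, and 3 from *K14-Cre;Kdf1* fl/fl embryos (cKO). Both groups carried the floxed *Kdf1* alleles, and the keratin 14 promoter drives Cre in all stratified epithelia rather than in the IEE alone. The cKO mice die shortly after birth, and how many embryos went into each library is not stated in the sources used here.

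In the epidermis, keratinocytes leave the basal layer, stop dividing and build a barrier of cornified envelopes, desmosomes and lipids. p63, encoded by *Trp63*, maintains the basal state and starts stratification. The grainyhead-like factors, OVOL1 and KLF4 are transcription factors that act on the way to the barrier, while KDF1, 14-3-3σ (*Sfn*) and IKKα (*Chuk*) are proteins whose loss in mice leaves the skin with too many dividing cells and poor terminal differentiation. The IEE is an epithelium of the same ectodermal origin, but it makes no cornified layer. The question put to the data was how these genes stood in the IEE once *Kdf1* had been removed.

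The 6 libraries held 14713918 to 16675133 assigned reads each, and 16289 to 16760 genes had at least 1 read. Levels are given as CPM, counts per 1000000 assigned reads after TMM scaling, and each level or SD is over n = 3 libraries. A gene was called past the criterion when its log2 fold change reached 1 in either direction with an adjusted p of at most 0.05 in edgeR's quasi-likelihood test over 14131 genes. That criterion took in 61 genes, and 70 genes shared adjusted p values between 0.049 and 0.05, so many calls lay at the threshold. One library stood apart for *Krt4* and *Krt13*, keratins of the oral lining. *Krt4* was at 25.9 CPM and *Krt13* at 37.0 CPM in control 3, against at most 0.363 CPM in every other library. Values without control 3 are therefore given beside the main results. *Krt6a*, a further keratin of oral epithelia, did not single out control 3. It was at 108, 25.4 and 73.5 CPM in controls 1, 2 and 3.

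*Kdf1* itself was nearly absent from the cKO libraries. It was at 52.5, 44.3 and 52.7 CPM in controls 1, 2 and 3 and at 0, 0.0629 and 0 CPM in cKO 1, 2 and 3, which is 1 read in all 3 cKO libraries against 2402 in the controls. The controls lay close together and every cKO library fell under the limit that a count of 0 allows. Set against that limit of 3 reads per library, the level was at least 252-fold lower in cKO (edgeR adjusted p = 0.000288, and 0.000709 with the replicate number as a block). The block treats libraries of equal number as pairs. That pairing was taken from these same data and is not stated in the labels, so calls made only with the block depend on it. *Kdf1* passed the criterion whichever 1 of the 6 libraries was left out, which checks the genotype labels of all 6.

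**Figure D1:**
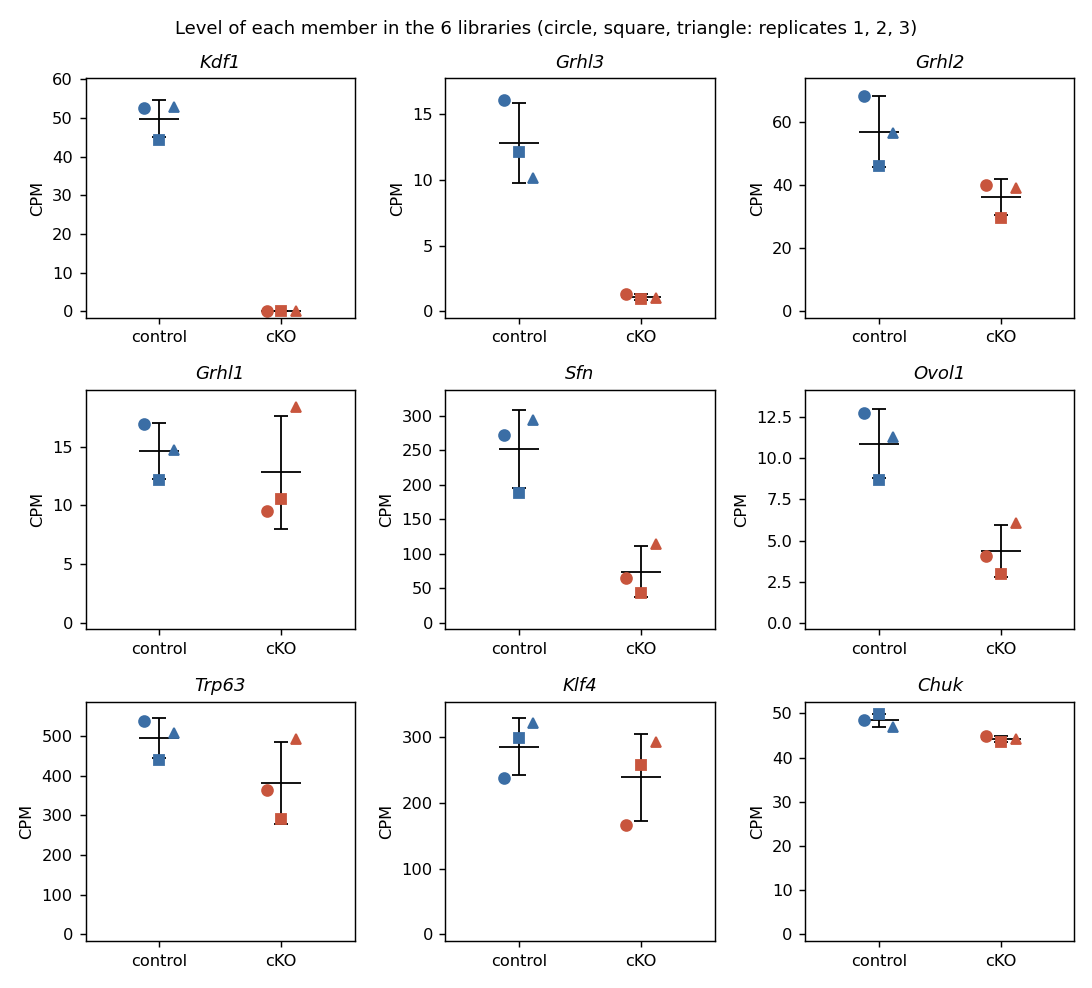
Level of each of the 9 genes in CPM (vertical axis of each panel, from 0) in the 3 control (blue) and 3 cKO (red) libraries, with circles, squares and triangles for replicates 1, 2 and 3, horizontal lines for the mean and bars for the SD. *Kdf1* and *Grhl3* lie near 0 in cKO, *Sfn*, *Ovol1* and *Grhl2* are lower without overlap, *Chuk* is separated by a small margin, and *Grhl1*, *Trp63* and *Klf4* overlap.

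*Kdf1*, *Sfn*, *Grhl3* and *Klf4* all lie on chromosome 4 of the mouse. *Sfn* is the fourth tested gene beyond *Kdf1* in the order of the RefSeq annotation (GRCm38.p6), whereas *Grhl3* is 40 tested genes away. The tested genes between *Kdf1* and *Sfn* stayed within 0.40 of no change. The log2 fold change was -0.39 (SE 0.11) for *Nudc*, which acts in nuclear migration, 0.40 (SE 0.23) for *Gpatch3* and -0.23 (SE 0.17) for the GTPase gene *Gpn2*. Among the 3 tested genes before *Kdf1* and the 5 after it, *Sfn* and *Tent5b*, a member of a poly(A) polymerase family, were alone in a log2 fold change beyond 1. *Tent5b* was at 5.21, 3.57 and 4.99 CPM in the controls and at 1.52, 1.83 and 1.45 CPM in cKO, without overlap. Its log2 fold change was -1.52 (SE 0.30, edgeR adjusted p = 0.0637, and 0.039 with the block). *Trnp1*, *Zdhhc18* and *Gm42323* had log2 fold changes between -0.31 and 0.02. *Gm42323* overlaps the start of *Kdf1* in the annotation, and whether reads were counted by strand is not stated. *Nr0b2*, a nuclear receptor gene in the same interval with too few reads to be tested, had 0 reads in each control and 5, 4 and 5 reads in cKO, and it was picked out after its values were seen.

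**Figure D2:**
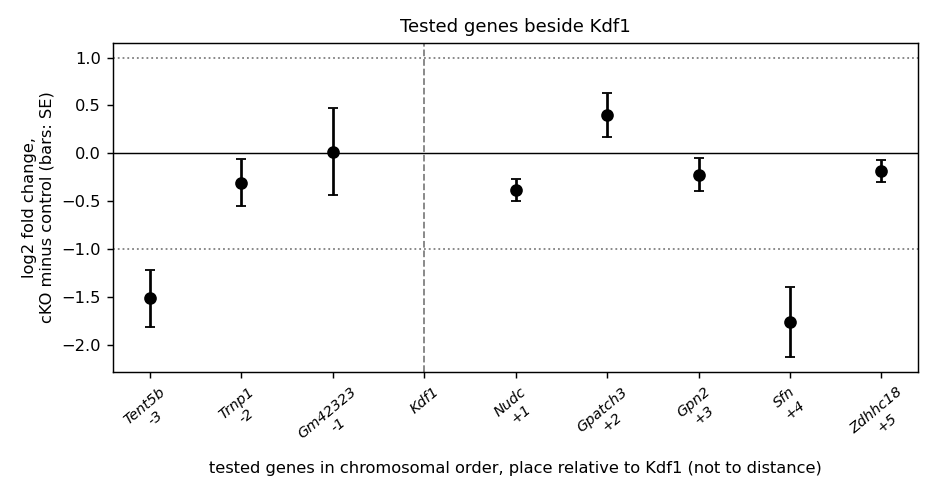
Log2 fold change (cKO minus control, bars SE) of the 3 tested genes before and the 5 after *Kdf1*, in chromosomal order and not to distance, with dotted lines at -1 and 1. *Tent5b* and *Sfn* lie below -1 and the other genes lie between -0.39 and 0.40.

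The promoters of *Kdf1*, *Sfn* and *Grhl3*, which had the largest differences of the 4 members on chromosome 4, are printed because grainyhead-like factors are known to bind near the genes of epithelial barriers. Each is the 250 bases before the RefSeq start on GRCm38.p6, written 5′ to 3′ on the strand of the gene, with capitals for any match to AACCNGTT, a grainyhead-like motif, on either strand. *Kdf1* is at chr4:133518713-133518962 on the plus strand, *Sfn* at chr4:133602169-133602418 on the minus strand and *Grhl3* at chr4:135573633-135573882 on the minus strand.
Kdf1: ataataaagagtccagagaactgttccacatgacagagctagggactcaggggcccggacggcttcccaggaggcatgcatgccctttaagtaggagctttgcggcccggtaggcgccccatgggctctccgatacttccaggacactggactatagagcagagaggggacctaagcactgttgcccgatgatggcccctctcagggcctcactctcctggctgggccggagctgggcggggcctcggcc
Sfn: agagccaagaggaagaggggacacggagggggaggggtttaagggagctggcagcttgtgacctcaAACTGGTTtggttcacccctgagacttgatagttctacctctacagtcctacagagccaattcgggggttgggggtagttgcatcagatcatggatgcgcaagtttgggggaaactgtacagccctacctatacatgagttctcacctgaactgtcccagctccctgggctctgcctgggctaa
Grhl3: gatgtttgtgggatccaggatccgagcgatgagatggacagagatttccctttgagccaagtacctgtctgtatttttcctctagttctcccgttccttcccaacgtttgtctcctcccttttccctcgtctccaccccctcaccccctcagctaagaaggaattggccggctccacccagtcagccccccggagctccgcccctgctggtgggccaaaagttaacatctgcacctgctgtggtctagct
The *Sfn* window held 1 match, 184 bases before the start and on the opposite strand, and the *Kdf1* and *Grhl3* windows held none. The motif was present in 588 of 32851 RefSeq promoters of this length (1.79%). A match of letters is a description of the sequence and no measure of binding. Entries were found for 6 of the 9 genes, and the windows of *Klf4*, *Grhl1* and *Chuk*, not printed, also held no match.

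*Grhl3* showed the largest difference after *Kdf1*. The grainyhead-like genes encode transcription factors of epithelial barrier formation, and *Grhl3* is the one needed most in the epidermis. *Grhl3* was at 16.1, 12.1 and 10.2 CPM in controls 1, 2 and 3 and at 1.33, 0.944 and 0.989 CPM in the cKO libraries. The lowest control was far above the highest cKO library, and the cKO mean was 8.49% of the control mean (12.8 ± 3.04 against 1.09 ± 0.211 CPM, SD). The log2 fold change was -3.55 (SE 0.30, edgeR adjusted p = 0.0247, and 0.00352 with the block). *Grhl3* was lowest, among the controls, in control 3, the library with *Krt4* and *Krt13*, and highest in control 1, where *Krt6a* was highest. Without control 3 its log2 fold change was -3.68 (edgeR adjusted p = 0.101). The call was lost without control 1, control 3, cKO 1 or cKO 2, with adjusted p values of up to 0.143 and log2 fold changes from -3.70 to -3.34 over the 6 omissions.

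The other grainyhead-like genes stood differently. *Grhl2*, the broadly epithelial member of the family, was at 68.4, 46.2 and 56.4 CPM in the controls and at 39.99, 29.7 and 39.0 CPM in cKO. The groups did not overlap, though the margin between control 2 and cKO 1 was small. The log2 fold change of *Grhl2* was -0.65 (SE 0.19, edgeR adjusted p = 0.106), and with the block the adjusted p was 0.0259 at a size still under the criterion. *Grhl1*, a regulator of desmosomal cadherins, was at 17.0, 12.2 and 14.72 CPM in the controls and at 9.56, 10.6 and 18.4 CPM in cKO. The cKO libraries lay on both sides of the controls, and the log2 fold change of -0.19 had a 95% interval from -0.86 to 0.49 (edgeR adjusted p = 0.724).

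The makeup of the family can be given on a scale that does not depend on library scaling. Of the summed TPM of *Grhl1*, *Grhl2* and *Grhl3*, where TPM corrects for transcript length, *Grhl3* made up 23.6%, 25.4% and 18.9% in the controls and 4.205%, 3.585% and 2.577% in cKO. The mean share was 22.6% ± 3.38 (SD) in control and 3.46% ± 0.822 (SD) in cKO. *Grhl1* accounted for 20.4% ± 1.04 in control and 31.9% ± 8.09 in cKO, and *Grhl2* for 56.99% ± 2.59 and 64.6% ± 7.27. The *Grhl2* shares overlapped between the groups and the *Grhl1* and *Grhl3* shares did not. The log2 ratio of *Grhl3* to *Grhl1* TPM was 0.14 ± 0.287 in control and -3.20 ± 0.728 in cKO. Of 11 such shares, ratios and sums compared by a two-sided exact permutation test, 10 gave p = 0.1, the smallest that 3 against 3 libraries allow (Benjamini-Hochberg adjusted 0.11), so none could pass a threshold of 0.05.

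**Figure D3:**
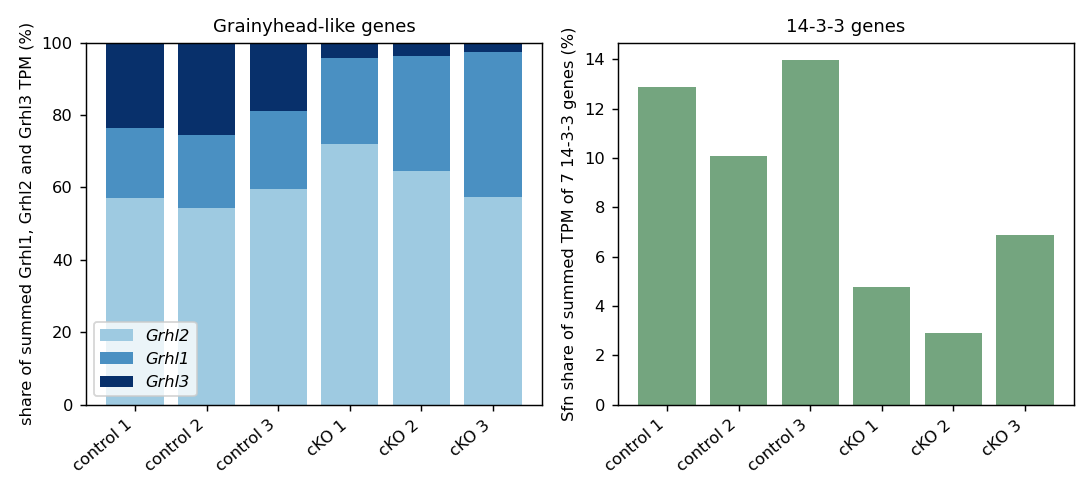
Left, share in percent of the summed TPM of *Grhl1*, *Grhl2* and *Grhl3* taken by each gene in the 6 libraries, as stacked bars. Right, share in percent of the summed TPM of the 7 genes of the 14-3-3 family taken by *Sfn*. The *Grhl3* share runs from 18.9% to 25.4% in control and from 2.577% to 4.205% in cKO, and the *Sfn* share from 10.1% to 13.98% and from 2.90% to 6.86%.

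*Sfn* encodes 14-3-3σ, the epithelial member of a family of phosphoprotein-binding adaptors. It was at 273, 188 and 295 CPM in controls 1, 2 and 3 and at 64.4, 42.8 and 115 CPM in the cKO libraries. The groups did not overlap, and cKO 3, the highest cKO library, was below the lowest control. The mean in cKO was 29.4% of that in control, and the log2 fold change was -1.77 (SE 0.36, edgeR adjusted p = 0.0679), which misses the criterion. With the replicate number as a block *Sfn* passed, with a log2 fold change of -1.86 and an adjusted p of 0.00626. Without control 3, in which *Sfn* was highest, the log2 fold change was -1.64 (edgeR adjusted p = 0.272). Without cKO 3 it was -2.21 and passed the criterion (edgeR adjusted p = 0.0476).

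Within its family *Sfn* made up 12.3% ± 2.00 (SD) of the summed TPM in control and 4.84% ± 1.98 in cKO, with no overlap. The other 6 genes of the 14-3-3 family together stood at 2260 ± 102 TPM in control and 1884 ± 52.9 TPM in cKO. None of those 6 reached a log2 fold change of 1 in either direction, and the lowest was *Ywhah* at -0.78 (SE 0.20, edgeR adjusted p = 0.0872).

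*Ovol1* encodes a zinc finger repressor that takes part in the exit of keratinocytes from proliferation. It was at 12.7, 8.66 and 11.3 CPM in the controls and at 4.05, 2.96 and 6.06 CPM in cKO. The groups did not overlap, with cKO 3 again the nearest to the controls. The log2 fold change was -1.32 (SE 0.32, edgeR adjusted p = 0.0808), and *Ovol1* passed with the block (adjusted p = 0.0256) and without cKO 3 (log2 fold change -1.61, edgeR adjusted p = 0.0478). Without control 3 its log2 fold change was -1.30 (edgeR adjusted p = 0.285). Its relative *Ovol2*, a repressor that keeps epithelial identity, had a log2 fold change of 0.45 (SE 0.27, edgeR adjusted p = 0.334), and its groups overlapped. The log2 ratio of *Ovol1* to *Ovol2* TPM was 0.22 ± 0.0739 in control and -1.71 ± 0.333 in cKO (exact permutation p = 0.1).

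The 3 remaining genes passed no test. *Trp63*, counted over all its isoforms, was at 540, 441 and 508 CPM in the controls and at 365, 290 and 494 CPM in cKO. Only cKO 3 lay within the range of the controls, and the log2 fold change of -0.37 had a 95% interval from -0.86 to 0.12 (edgeR adjusted p = 0.309). *Klf4*, a factor of late barrier formation, was at 238, 298 and 322 CPM in the controls and at 166, 258 and 293 CPM in cKO, with overlap. Its log2 fold change was -0.26, with a 95% interval from -0.79 to 0.28 (edgeR adjusted p = 0.517). *Chuk* was at 48.5, 49.8 and 47.0 CPM in the controls and at 44.9, 43.5 and 44.2 CPM in cKO. The CPM values did not overlap, but the TPM values did, at 23.03 to 27.82 in control and 22.87 to 26.43 in cKO. The log2 fold change of *Chuk* was -0.13, with a 95% interval from -0.37 to 0.10 (edgeR adjusted p = 0.454). The other IKK subunits, *Ikbkb* and *Ikbkg*, had log2 fold changes of 0.00 and -0.07.

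Compared per length in control IEE, the members stood in a wide range of levels. *Sfn* was highest at 318 ± 54.8 TPM (SD), followed by *Trp63* at 213 ± 20.2 and *Klf4* at 176 ± 25.2. *Kdf1* was at 49.7 ± 3.15 TPM, *Chuk* at 25.5 ± 2.40 and *Grhl2* at 21.9 ± 4.20. *Ovol1* was at 8.91 ± 1.03 TPM, *Grhl3* at 8.75 ± 2.30 and *Grhl1* at 7.80 ± 1.16. The control libraries of these last 3 genes overlapped in TPM, as did those of *Chuk* and *Grhl2*, while other neighbours in that order did not. In cKO *Trp63* was highest at 163 ± 35.1 TPM, then *Klf4* at 152 ± 33.1 and *Sfn* at 96.9 ± 43.5. The libraries of *Trp63* and *Klf4* overlapped, as did those of *Klf4* and *Sfn*, although *Klf4* was above *Sfn* in each cKO library. *Chuk* followed at 24.3 ± 1.90 TPM, *Grhl2* at 14.6 ± 2.71, *Grhl1* at 7.28 ± 2.57 and *Ovol1* at 3.42 ± 1.29, and *Grhl3* was at 0.777 ± 0.202 TPM, with no overlap between neighbours from *Chuk* down. The log2 ratio of *Sfn* to *Trp63* TPM was 0.56 ± 0.238 in control and -0.83 ± 0.360 in cKO (exact permutation p = 0.1).

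Over the 9 genes, 2 passed the criterion, *Kdf1* and *Grhl3*, both lower in cKO, where 0.290% of all tested genes were called lower and 0.142% higher. With the replicate block 4 of 9 passed, the same genes plus *Sfn* and *Ovol1*, where the block called 1.92% of all genes lower and 4.16% higher. DESeq2 also called those 4 genes lower, against 1.84% of the genes it tested called lower and 4.96% called higher. In CPM, every cKO library was below every control library for 6 of 9, *Chuk* among them, against 16.2% of all tested genes. All 9 fold changes were below 0, with a median log2 fold change of -0.65 for the 9 genes and of 0.00 for all tested genes. *Kdf1*, the gene that was removed, is included in each of these figures, the median among them. Its call, its separation and its sign were set by the design and say nothing about the other members. Of those others, *Grhl3* alone passed the criterion, joined by *Sfn* and *Ovol1* with the block and in DESeq2. The others without overlap were *Grhl2*, *Grhl3*, *Sfn*, *Ovol1* and *Chuk*. Among the cKO libraries, cKO 3 was the highest in 5 of the 8 members other than *Kdf1*. Control 1 was likewise the highest control in 5 of the 8. The matching shares over all genes are not given here.

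Most markers of the epithelium itself also had lower values in cKO. Of 16 markers of dental epithelium, 13 had a log2 fold change below 0, from -1.497 to 0.27 over the list, and 1, *Cdh1*, passed the criterion, while 3 passed with the block, all lower. Over all tested genes, 50.5% lay below 0, and 0.290% were called lower, or 1.92% with the block. Their geometric mean was 656, 493 and 629 CPM in the controls and 363, 330 and 486 CPM in cKO, so cKO 3 was the highest cKO library in the markers as well. In bulk samples, fewer cells of a type and less RNA per cell cannot be told apart. Rescaling every library to the geometric mean of these 16 markers moved the median log2 fold change of all genes up by 0.61. On that scale *Kdf1* was at -10.22, *Grhl3* at -2.94 (edgeR adjusted p = 0.0276) and *Sfn* at -1.22 (edgeR adjusted p = 0.0347), and these 3 passed the criterion. Of all 14131 tested genes, 58 were called lower and 1457 higher on that scale, and the call of *Kdf1* was set by the design. *Ovol1* was at -0.75 (edgeR adjusted p = 0.0809) and *Grhl2* at -0.04. *Trp63*, *Klf4*, *Grhl1* and *Chuk* turned positive, at 0.20, 0.32, 0.38 and 0.47, all below the shift of all genes.

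**Figure D4:**
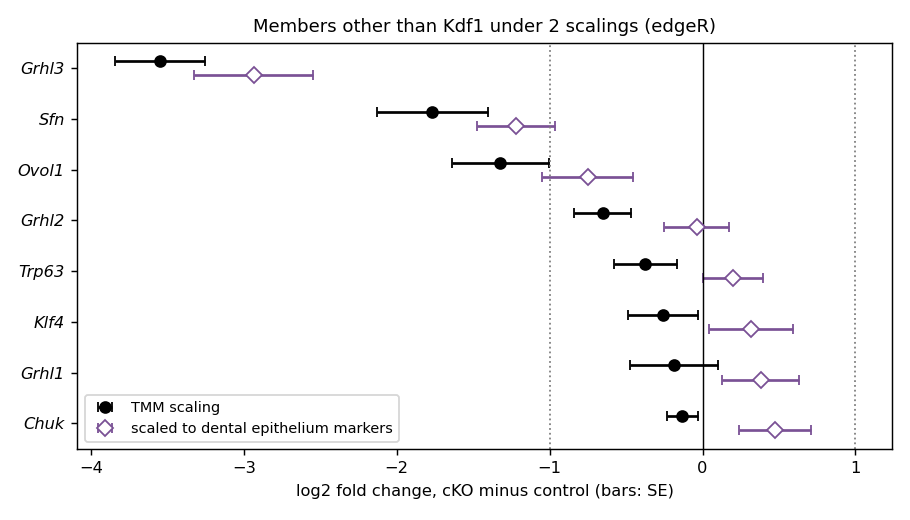
Log2 fold change (cKO minus control, bars SE) of the 8 genes other than *Kdf1*, with TMM scaling (filled circles) and with each library scaled to 16 dental epithelium markers (open diamonds), and dotted lines at -1 and 1. *Grhl3*, *Sfn* and *Ovol1* lie below 0 on both scales, while *Trp63*, *Klf4*, *Grhl1* and *Chuk* change sign.

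Markers of other cells differed between the groups too. The counts below stand against 0.290% of all tested genes called lower and 0.142% called higher, or 1.92% and 4.16% with the block. For DESeq2 the shares were 1.84% and 4.96% of the genes it tested. Of 8 ameloblast markers, 6 were tested and none passed the criterion in edgeR, though all 6 had an unadjusted p under 0.05, as did 24.5% of all tested genes. The block called 5 lower and DESeq2 called 3 lower. Their summed level was 4096 to 17860 CPM in control and 1173 to 2338 CPM in cKO. The 5 markers of the stratum intermedium, the layer next to the IEE, summed to 1538 to 1590 CPM in control and 925 to 964 CPM in cKO, and 1 of them passed the criterion, with 2 passing with the block, all lower. Of 10 markers of keratinised or oral epithelium, 9 were in the table, 4 were tested and 1, *Krt6a*, passed the criterion, lower. *Krt6a*, a keratin of oral and activated epithelia, was at 108, 25.4 and 73.5 CPM in the controls and at 4.05, 3.21 and 6.92 CPM in cKO. *Krt1*, *Krt10* and *Lor* had log2 fold changes of -0.75, -0.26 and 0.08 and did not pass. The list summed to 41.2 to 155 CPM in control and 15.5 to 21.6 CPM in cKO. Much of that control sum was *Krt6a* and, in control 3, also *Krt4* and *Krt13*. *Krt76*, a keratin of the hard palate and gingiva, was at most 0.126 CPM in any library. The 12 papilla and odontoblast markers did not move together. Of 11 tested, 1 passed the criterion, the mesenchymal factor gene *Twist1*, which rose (log2 fold change 2.23, edgeR adjusted p = 0.0498), and with the block 5 were called higher and 1 lower. *Prrx1*, *Col3a1* and *Msx1* had log2 fold changes of 2.59, 2.32 and 1.49 and passed with the block, while *Dspp*, the odontoblast dentine gene, was at -3.45 and was the one called lower. The list's sum overlapped between the groups, at 4493 to 23490 CPM in control and 12130 to 13230 CPM in cKO. No endothelial or immune marker passed the criterion in edgeR, with 4 of 7 in each list at an unadjusted p under 0.05, and DESeq2 called 1 and 3 of them higher, the block 0 and 1. Their sums were 265 to 330 CPM in control and 312 to 893 CPM in cKO for the endothelial list, and 24.7 to 49.7 and 42.9 to 159 CPM for the immune list. Of 6 tested neutrophil markers, 5 rose past the criterion, with a summed level of 3.82 to 4.96 CPM in control and 32.4 to 77.5 CPM in cKO. All 3 sums were highest in cKO 1. Muscle markers summed to at most 4.94 CPM, and erythroid and neural sums overlapped between the groups. The part of these cell types in the values of the 9 genes was not tested.

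Lists of the wider pathway gave 0 to 3 calls each with the criterion. For comparison, the criterion called 0.290% of all tested genes lower and 0.142% higher, and the block called 1.92% and 4.16%. Among 25 other regulators of keratinocyte differentiation, 24 were tested and 1 passed the criterion, *Zfp750*, an effector of p63 in late differentiation. *Zfp750* was at 215, 140 and 208 CPM in the controls and at 46.3, 31.5 and 63.1 CPM in cKO (log2 fold change -1.997, SE 0.28, edgeR adjusted p = 0.0498). With the block 4 passed, all lower, the others being *Maf*, *Ehf* and *Notch1*, whose log2 fold changes in that fit were -1.29, -1.28 and -1.13, which are named for the block and were also called by DESeq2. The median log2 fold change of the list was -0.26, and 17 of 24 lay below 0, against 50.5% of all tested genes.

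The terminal differentiation genes were mostly at very low levels in the IEE. Of 34 names listed, 26 were in the table and 12 could be tested, and the untested ones, which include *Flg* (filaggrin) and *Sprr1a*, averaged at most 0.827 CPM over the 6 libraries. Of the 12, 3 fell and none rose past the criterion, against 0.290% and 0.142% of all tested genes. *Ppl* (periplakin) was at 179, 133 and 172 CPM in the controls and at 42.8, 34.5 and 44.2 CPM in cKO (log2 fold change -1.99, SE 0.16, edgeR adjusted p = 0.0247). *Evpl* (envoplakin), its partner in the cornified envelope, was at 131, 102 and 155 CPM and at 54.1, 44.8 and 46.5 CPM (log2 fold change -1.41, SE 0.18, edgeR adjusted p = 0.0498). *Dsg1a*, a desmosomal cadherin, was at 72.9, 40.1 and 58.4 CPM and at 12.1, 13.9 and 19.8 CPM (log2 fold change -1.90, SE 0.28, edgeR adjusted p = 0.0498). With the block 5 passed, with *Cers3*, a ceramide synthase, at -1.35 and the transglutaminase *Tgm1* at -1.19 in that fit. The median of the 12 was -0.70, and 8 lay below 0, against 50.5% of all tested genes. *Dsg1a* has near-identical neighbours in its gene cluster, so its reads may be shared with them.

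Of 9 genes described as targets of grainyhead-like factors, 8 were tested and all 8 fold changes were below 0, against 50.5% of all tested genes. The criterion called 3 of them lower, *Cldn4*, *Cdh1* and *Dsg1a*, against 0.290% of all tested genes. *Cldn4*, a tight junction claudin, was at 35.9, 16.2 and 18.2 CPM in the controls and at 2.15, 1.20 and 3.69 CPM in cKO (log2 fold change -3.32, SE 0.49, edgeR adjusted p = 0.0498). *Cdh1* (E-cadherin) was at 852, 650 and 1028 CPM and at 265, 281 and 350 CPM (log2 fold change -1.497, SE 0.21, edgeR adjusted p = 0.0498). *Epcam*, an epithelial adhesion molecule on the same list, was at -0.05 (SE 0.21), and the median of the 8 was -0.98. With the block 4 passed, the fourth being *Tgm1*. This list shares 2 genes with the terminal differentiation list and 3 with the epithelial markers.

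Of 9 genes described as p63 targets, none passed the criterion in edgeR, although 7 had an unadjusted p under 0.05, against 24.5% of all tested genes. DESeq2 and the block each called 1 lower, against 1.84% and 1.92% of the genes each tested. Both called *Krt14*, the basal keratin whose promoter drives the Cre (log2 fold change -1.497, edgeR adjusted p = 0.0842, and 0.00685 with the block). *Cdh3* (P-cadherin) was the one gene of the list above 0, at 0.26 (SE 0.18), and the median was -0.79. Of the 9, 5 are also on the list of dental epithelium markers, whose own median was -0.62. Among 25 relatives of the members, 24 were tested and none passed in edgeR, with 8 at an unadjusted p under 0.05 (24.5% over all tested genes) and a median of -0.14. DESeq2 and the block each called 1 of them, *Klf9*, a glucocorticoid-responsive factor, which was higher. They called 4.96% and 4.16% of the genes each tested higher. *Klf9* was at 12.4, 11.8 and 11.2 CPM in the controls and at 96.6, 37.3 and 33.2 CPM in cKO (log2 fold change 2.23, edgeR adjusted p = 0.0637, and 0.0178 with the block). Without control 3 the counts past the criterion were 1 among the members, the removed gene *Kdf1* itself, and 0 in each of these 5 lists, and 1 over all genes.

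**Figure D5:**
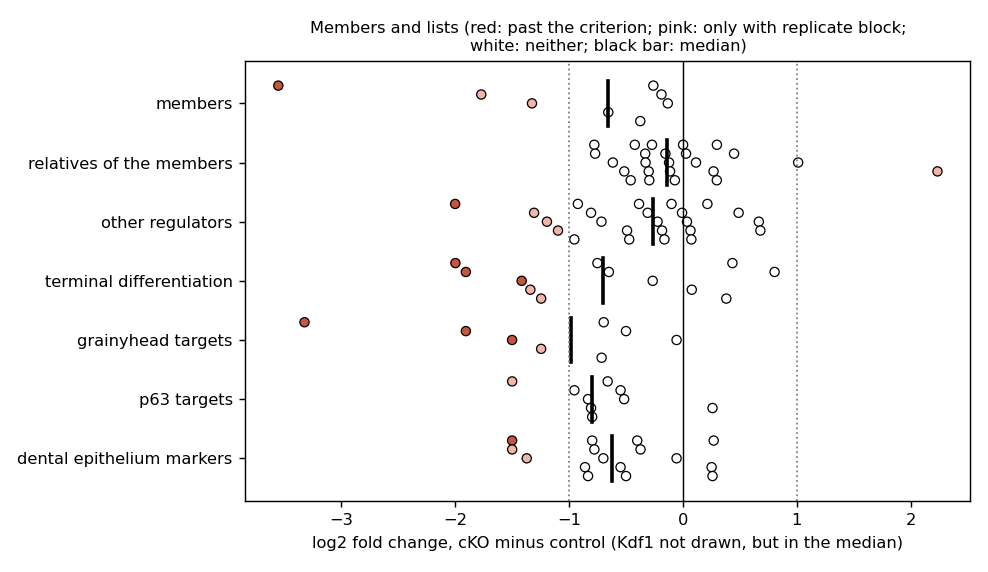
Log2 fold change (cKO minus control) of the tested genes of each list, 1 point a gene, with black bars for medians, red for genes past the criterion, pink for genes past it only with the replicate block and dotted lines at -1 and 1. *Kdf1* is not drawn but is counted in the median of the members, which is -0.65 beside -0.98 for the grainyhead targets and -0.14 for the relatives.

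The genes most like *Kdf1* and *Grhl3* over the 6 libraries were sought among 11598 genes with a mean of at least 5 CPM, by the root mean square difference of log2 CPM after each gene's own mean had been taken off. For *Grhl3* these were *Cldn4* (0.435), the ATP-gated channel gene *P2rx2* (0.467) and *Gm52701* (0.531). *P2rx2* was at 13.9, 5.03 and 10.99 CPM in the controls and at 0.569, 0.440 and 1.06 CPM in cKO. For *Kdf1*, whose near absence in cKO has no close match, they were *Krt6a* (1.64) and the enamel genes *Mmp20* (1.69) and *Acp4* (1.76). *Mmp20*, the enamel protease enamelysin, was at 26.9, 93.3 and 207 CPM in the controls and at 0.253, 2.01 and 11.4 CPM in cKO, a spread within groups far wider than that of *Kdf1*.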

How the data were processed

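RNA was obtained from 6 laser captured IEE samples of MM1 at E18.5, 3 of each genotype, which the labels call biological replicates. Per the labels, RNA was extracted with TRIzol and libraries were made with a TruSeq kit. The submitters' processing notes name BWA 0.7.12, Picard 2.6.0 and StringTie without saying what each did. The genome build, annotation and strand setting are not given in the sources used here. The authors deposited estimated counts per gene, of which 10.9 to 11.5% of values per library were not whole, and these were rounded. The TPM values deposited by the authors, normalised by them for transcript length and depth, were used for levels between genes and as an alternative. The FPKM values and the authors' averages over replicates were not used.

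Counts were tested with edgeR 4.0.16 (R 4.3.3), as robust quasi-likelihood fits with TMM scaling, its default filter on low counts and Benjamini-Hochberg adjustment over 14131 genes. The criterion, a log2 fold change of at least 1 in size and an adjusted p of at most 0.05, is the one the study's methods state, which name no test. Intervals are 95% t intervals from the same fit. The limit for a count of 0 is 3 reads, 0.182 to 0.198 CPM per library, and covers counting error only. Total counts were 14713918 to 16675133 per library. Libraries within a group differed beyond sampling noise (chi-square per degree of freedom 34.3 to 73.3). Since the number of embryos per library is not stated, p-values measure the spread between these libraries.

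Replicate numbers were taken to pair libraries, because deviations from the group mean correlated by 0.133, 0.344 and 0.515 for equal numbers. Control 2 and cKO 1 correlated by 0.144, and the labels name no shared litter or day. The pairing thus comes from the data. Fits with the number as a block are given beside the calls and counts they change.

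Alternatives were DESeq2 1.42.0, limma 3.58.1 (voom, and log2(TPM + 1) or log2(TPM + 0.1)), edgeR without its robust option, other scalings, no filter and the omission of each library. On simulated counts for 14055 genes, edgeR recovered 89 of 99 genes changed by 1.5 on the log2 scale and 97 of 98 changed by 2. The simulation gave every gene the same dispersion between libraries, so it checks the code and does not measure recovery in these libraries. Named genes were the 9 members, up to 5 genes per list past the criterion without overlap and at 5 CPM or more in the higher group, the 3 nearest profiles of each member past the criterion, the 5 tested genes on either side of *Kdf1*, some of which are not reported here, and any marker placed beside a result. Others are named as chosen after their values were seen, or for the block alone. The 9 genes, the lists and the markers were chosen with earlier results of these data known. Promoters were taken from RefSeq (GRCm38.p6).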

Additional observations from a re-analysis of the deposited data

How the results depend on the processing

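*Kdf1* passed the criterion in all 11 alternative fits and all 6 omissions of a library, with log2 fold changes from -12.61 to -5.63. *Grhl3* passed in all 11 fits (-3.55 to -2.43, adjusted p up to 0.0494) and in 2 of 6 omissions. *Sfn* passed in 3 of 11 fits (-1.86 to -1.22) and 1 omission, and *Ovol1* in 2 (-1.42 to -0.75) and 1, both below 0 throughout. *Grhl1*, *Grhl2*, *Chuk*, *Trp63* and *Klf4* passed in no fit. Scaling to the epithelial markers reversed *Grhl1* (0.38), *Chuk* (0.47), *Trp63* (0.20) and *Klf4* (0.32), and *Grhl1* ran from -0.52 to 0.0084 over the omissions, the latter without cKO replicate 1. That scaling differs from TMM by construction, as the markers were lower in cKO.

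The count of genes past the criterion (61) was 1038 with DESeq2, 860 with the replicate block, 1515 scaled to the epithelial markers, 103 with no filter, 7 with DESeq2's size factors in edgeR, 9 with library size alone and 6 with voom, and the cause was not tested. Of the 61, 20 were higher and 41 lower in cKO, but higher calls prevailed with DESeq2 (757 higher, 281 lower), the block (588 and 272) and the epithelial markers (1457 and 58). It ran from 1 to 465 when a library was left out, with 465 without cKO 3, 16 without control 2 and 1 without any other. Members past it (2) numbered 4 with DESeq2 and with the block, and 1 to 4 without a library, and each of these counts includes the removed gene *Kdf1*. Other regulators (1) numbered 4 with DESeq2 and the block, 3 scaled to the markers (2 higher and 1 lower, where all others were lower), 0 with DESeq2's size factors, library size or voom, and 0 to 2 without a library. Terminal differentiation genes (3) numbered 5 with DESeq2 and the block, and 3 scaled to the markers (1 higher and 2 lower). They numbered 1 with DESeq2's size factors, library size or voom, and 0 to 3 without a library. Grainyhead targets (3) numbered 0 with those 3, and 0 to 3 without a library. Relatives of the members (0) numbered 1 with DESeq2 and the block, 2 scaled to the markers, and 0 to 1 without a library. The p63 targets (0) numbered 1 with DESeq2 and the block, and 0 to 2 without a library. Among the members, the block changed no call other than those of *Sfn* and *Ovol1*.

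There were 3 libraries a group, adjusted p values of many genes lay just under 0.05, and many calls changed when 1 library was left out. The directions of *Kdf1*, *Grhl2*, *Grhl3*, *Sfn* and *Ovol1* held in every fit run. Exact tests of single values could not go below 0.1. At the depth of these libraries, genes under about 0.2 CPM cannot be told from absent ones. The part of neighbouring cells in the captured tissue was not tested.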
